A study of Homo sapiens with 12 samples.

Results

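N6-methyladenosine (m6A) enrichment in cells carrying guide sgMETTL16-2 was set against that in cells carrying guide sgMETTL16-1, both of them knockouts of METTL16 in NOMO-1, a human monocytic acute myeloid leukaemia line. The authors deposited 4 tables, 1 for each guide and table number, and each lists windows of transcripts with a log2 fold change between that guide and the control guide sgNS. Within a number, windows of the 2 guides were taken as the same when they carried 1 gene name, lay on 1 strand and overlapped by 0.5 or more of each window's bases, matched 1 to 1. The log2 fold change of sgMETTL16-1 was then subtracted from that of sgMETTL16-2. An sgNS control common to both tables of a number cancels in this guide difference, which is above 0 where the deposited value is higher with sgMETTL16-2. The matching gave 39011 windows in number 1 and 37613 in number 2, 76624 in all, from 296568 windows listed in the 4 tables. Of these, 7764 windows on 5723 genes could be followed through all 4 tables, and 2231 of them on 1952 genes were enriched in IP over input in every table (deposited FDR under 0.05).

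Each guide was represented by 2 input and 2 IP libraries of polyadenylated RNA, 8 knockout libraries among 12. All cells, the sgNS control cells included, had been infected with a guide-carrying lentivirus and kept in puromycin before RNA was taken, and the labels name no clone. The labels do not say that replicates came from separate cultures. Every limma p-value below thus rests only on the spread between the 2 table numbers, which may be technical. In limma's uncentred fits over enriched windows alone this spread was pooled over all windows or genes. The deposited FDRs are the authors' and are given for each table alone. None of the sources used here gives the sgNS libraries behind each table or the way the deposited ratio was taken. All 8 of 8 monocytic and myeloid markers looked for (CD14, CD33, ITGAM, LYZ, CSF1R, MPO, CEBPA and SPI1) had windows in all 4 tables. Of the markers of other cells reported here, CD3E, MS4A1, HBB, EPCAM, KRT8 and KRT18 had no window in any table. The tables hold no RNA levels, so neither the depth of a library nor the loss of METTL16 RNA could be read from them.

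Most m6A of messenger RNA is written by the METTL3-METTL14 complex, mainly in long internal exons and around stop codons. METTL16 is a separate methyltransferase with a narrow set of established substrates, the U6 small nuclear RNA and hairpins in the 3' untranslated region of MAT2A. MAT2A encodes the enzyme that makes S-adenosylmethionine, the methyl donor of both writers. Guides against the same gene share their intended target and differ in the site they cut, so a difference between them holds what is not common to the knockouts. It also holds the variation between separate libraries.

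The guides differed less than unrelated tables would, and large differences lay mostly in windows that were not enriched. Over all matched windows the guide difference had a standard deviation (SD) of 0.814 in number 1 and 0.776 in number 2. The variances of the deposited fold changes alone would give 1.22 and 1.23 if the 2 tables of a number were unrelated. Among windows enriched in both tables of a number the SD was 0.303 over 4333 windows in number 1 and 0.250 over 5736 in number 2, against 0.511 and 0.476 for unrelated tables. A control shared by the 2 tables of a number narrows these values as well as a shared knockout effect does, and the 2 cannot be told apart. A difference of at least 2-fold (1 on the log2 scale) occurred in 0.669% and 0.349% of these enriched windows and in 21.4% and 20.7% of the others. Among enriched windows of number 1 the median difference was 0.11, with 65.9% of windows above 0. In number 2 the median was -0.007 and 48.3% of windows lay above 0. In the authors' deposited tables the enriched windows of number 1 had a median log2 fold change of -0.06 with sgMETTL16-1 and 0.06 with sgMETTL16-2, and those of number 2 had 0.13 and 0.12.

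**Figure D1:**
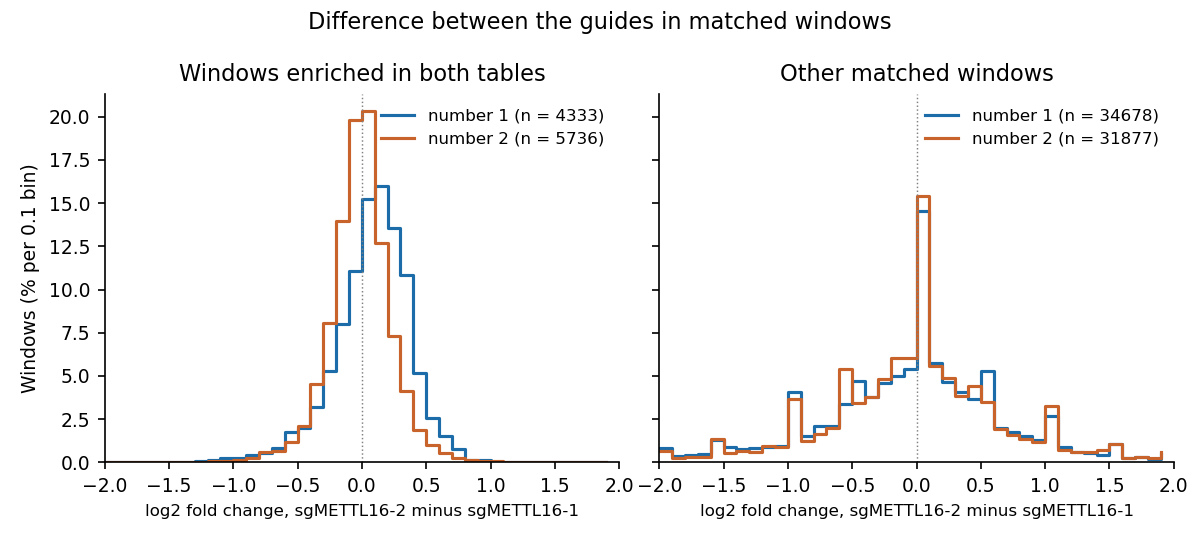
Share of matched windows (percent per bin of 0.1) by guide difference (log2 fold change of sgMETTL16-2 minus that of sgMETTL16-1) in number 1 (blue) and number 2 (orange), for windows enriched in both tables (left) and the other matched windows (right). Enriched windows lie close together, with the curve of number 1 to the right of 0 (median 0.11) and that of number 2 on it (median -0.007), while the other windows spread past 1 in both directions.

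The shift of number 1 was seen along the whole transcript. Its median was 0.15 in the 469 enriched windows within 1000 bases of the 5' end of the gene, 0.10 in the 1393 within 1000 bases of the 3' end, and 0.10 in the 2225 further inside. It ran from 0.09 in windows of at most 200 bases to 0.17 in the 29 windows longer than 1600 bases. In number 2 the medians by position lay between -0.02 and 0.0075. Its windows of at most 200 bases had a median of 0.05, with 60.5% of 562 above 0, and the medians of the longer classes were below 0. Enriched windows of the same gene were more alike in number 1. The intraclass correlation of the guide difference within genes was 0.201 over 712 genes with 1602 windows in number 1, and 0.0210 over 1206 genes with 2898 windows in number 2. The deposited fold changes of these windows were also more alike in number 1. They gave 0.210 (sgMETTL16-1) and 0.370 (sgMETTL16-2) there, and 0.0940 and 0.101 in number 2. Over all matched windows the guide difference gave 0.00719 in number 1 and -0.0188 in number 2.

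The guide difference of a window in number 1 gave almost no information on its difference in number 2. Across the 7764 windows followed through all 4 tables, Spearman's rho was 0.0285 and Pearson's r 0.0119, as a description over windows that share libraries within a number. The rho was -0.00032 over the 2231 enriched windows and 0.0338 over the 5533 others. It was 0.00715 over the mean differences of 11609 genes. The difference had the same sign in both numbers in 48.1% of windows and opposite signs in 47.3%, and the rest had a value of 0 in a number.

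**Figure D2:**
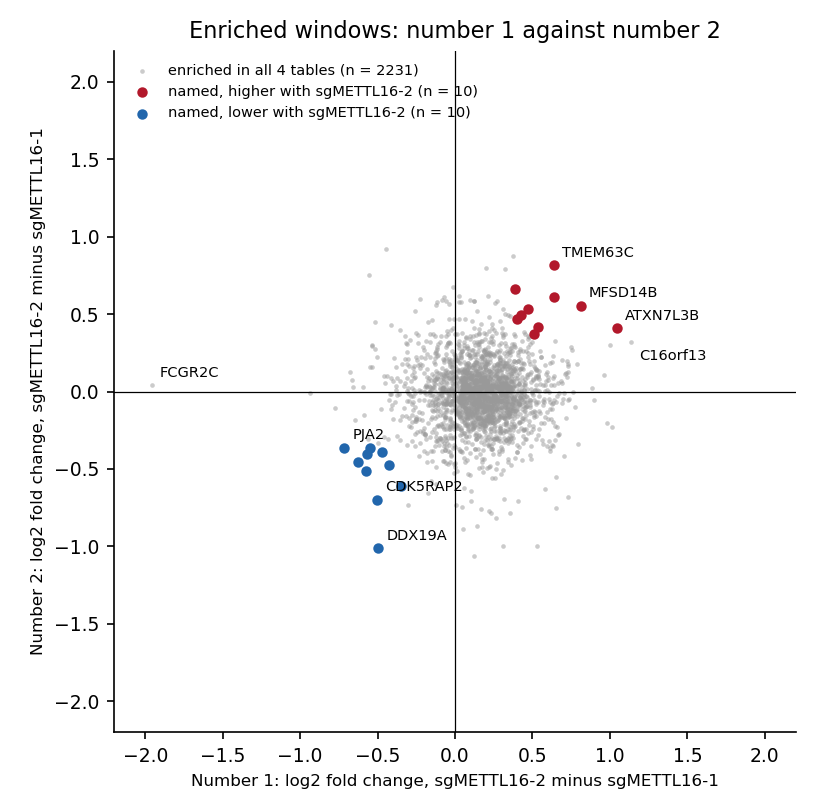
Guide difference (log2 fold change of sgMETTL16-2 minus that of sgMETTL16-1) in number 1 (horizontal) and number 2 (vertical) of the 2231 windows enriched in all 4 tables (grey), with the 10 named windows higher with sgMETTL16-2 in red and the 10 lower in blue. The cloud is round (rho -0.00032) and centred to the right of 0 on the horizontal axis alone, and FCGR2C lies far to the left at -1.96 with 0.04 in number 2.

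Tested with limma over both numbers with Benjamini-Hochberg adjustment, no window passed an adjusted p of 0.05 (0 of 7764, 0%), and the smallest adjusted p was 0.910. At an unadjusted p under 0.05 there were 390 windows (5.02%), and without subtracting within a number there were 0 windows by adjusted and 163 by unadjusted p. By gene, limma called 0 of 11609 (0%) at a smallest adjusted p of 0.910, with 460 (3.96%) at an unadjusted p under 0.05. With 2 values per window and 2.51 total degrees of freedom the intervals are wide, and a missed threshold does not show that the guides act alike.

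MAT2A is an established METTL16 target and had 2 matched windows in each number. In the window near the 3' end of number 1, chr2:85544625-85545161 on GRCh38, the authors' deposited tables gave log2 fold changes of -0.71 with sgMETTL16-1 and -0.73 with sgMETTL16-2, a guide difference of -0.02. The window there in number 2, chr2:85544923-85545161, was shorter and did not match that of number 1. The deposited values for it were -0.81 and -0.61, a difference of 0.20. Both guides were thus below 0 in both numbers at the MAT2A 3' end, and the order of the guides was not the same. In number 1 this window was enriched with sgMETTL16-2 and not with sgMETTL16-1, and in number 2 it was enriched with neither guide (deposited fold enrichment 1.44 and 1.25). The upstream MAT2A window had deposited values of 0.11 and -0.32 in number 1 and -0.69 and -0.94 in number 2. Its guide differences were -0.43 and -0.24, the lower value each time with sgMETTL16-2, and it was not enriched in every table. The mean over MAT2A windows was -0.23 in number 1 and -0.02 in number 2, with an adjusted p of 0.930 in limma's test over all genes.

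GGCX, the vitamin K-dependent gamma-carboxylase, lies on the opposite strand and runs across the 3' end of MAT2A. Its window at chr2:85544780-85545169 had deposited values of -0.70 and -0.64 in number 1. The window at chr2:85544989-85545109 had -0.73 and -0.68 in number 2. The guide differences were 0.07 and 0.05, beside -0.02 and 0.20 at the MAT2A 3' end, and the part of MAT2A reads in these values was not tested. Over all its matched windows, 8 in number 1 and 5 in number 2, GGCX ranged from -0.49 to 0.95 and from -1.43 to 0.42, and none of these windows was enriched in both tables of a number.

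METTL16 itself had 2 matched windows in each number, none of which could be followed through all 4 tables. In number 1 the window at chr17:2419949-2420548 had deposited values of -0.60 with sgMETTL16-1 and -0.18 with sgMETTL16-2, a difference of 0.43. A shorter window at chr17:2419559-2419649 had 0.04 and 0.83, a difference of 0.79. In number 2 the window at chr17:2418001-2418121 had -2.34 and -2.50, a difference of -0.16. The last, at chr17:2416054-2416114, had 0 and 0.42. The gene mean was 0.61 in number 1 and 0.13 in number 2 (adjusted p = 0.910 in limma's test over all genes), and these windows lie in different places.

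The matched windows of MAT2A, GGCX and METTL16 had no deposited call (FDR of the difference under 0.05) with both guides in both numbers. Windows of 7 other genes had such calls, and their guide differences lay between -0.20 and 0.25. The genes were known from earlier results to be called with both guides, so these values are a description and do not stand for all such windows. In EIF4A1, the RNA helicase of the cap-binding complex, the window at chr17:7577646-7577885 had deposited log2 fold changes of -0.59 and -0.53 in number 1 and -0.74 and -0.61 in number 2, in the order sgMETTL16-1 and sgMETTL16-2. Its guide differences were 0.06 and 0.14 (mean 0.10, 95% interval -0.41 to 0.60 in limma). The readthrough gene SENP3-EIF4A1 shares these bases and gave 0.05 and 0.13, which is not a second measurement. In SRSF11, an SR-family splicing factor, the window at chr1:70244751-70251000 had -0.27, -0.24, -0.33 and -0.33 in the same order of tables, with differences of 0.03 and -0.007.

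In PTPN7, a tyrosine phosphatase of blood cells, the 1105-base window at chr1:202147013-202148117 had deposited values of 0.32, 0.31, 0.21 and 0.22. The guide differences, -0.007 and 0.008, were the closest to 0 among these genes in both numbers together. UPF3B, a factor of nonsense-mediated decay, had -0.66, -0.86, -0.66 and -0.66 in its window at chrX:119838476-119843242, with differences of -0.20 and 0. In CEBPA, the myeloid transcription factor, the window of 1525 bases had 0.24 and 0.49 in number 1 and 0.35 and 0.32 in number 2. The CEBPA differences of 0.25 and -0.03 thus lay above 0 in number 1 alone. IL4R, the interleukin-4 receptor chain, had 2 neighbouring enriched windows. Its 3' window had deposited values of 0.52, 0.62, 0.70 and 0.53 and differences of 0.10 and -0.18, so the order of the guides turned between numbers. The window before it had -0.07, 0.34, 0.20 and 0.46 and differences of 0.42 and 0.26, higher with sgMETTL16-2 each time, without a deposited call in any table.

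Among the 2231 windows enriched in all 4 tables, 814 were higher with sgMETTL16-2 in both numbers and 247 were lower in both. These counts stand beside 78.7% of the 2231 above 0 in number 1 and 46.5% in number 2. The signs were the same in 47.6% of them and opposite in 52.0%, so the counts show no agreement between numbers. From the windows of 1 sign in both numbers, 10 in each direction were named by the smallest limma p. None of these 20 passed the adjusted p over all windows (0.910 for each). The rule fixed their sign in both numbers, so that agreement is no replication. Their 95% intervals take no account of the choice. TMEM63C, of a family of mechanosensitive and osmosensitive cation channels, came first among the higher windows. Its window of 687 bases at chr14:77253362-77257197 had deposited values of -0.40 with sgMETTL16-1 and 0.24 with sgMETTL16-2 in number 1, and -0.44 and 0.38 in number 2. The guide differences were 0.64 and 0.82 (mean 0.73, 95% interval 0.19 to 1.26). Both sgMETTL16-1 values were below 0 and both sgMETTL16-2 values above it, so the guides did not overlap. The window lies 2298 bases from the 3' end of the gene and had a fold enrichment of IP over input between 2.06 and 3.65 in the authors' deposited tables.

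ATXN7L3B, a paralogue of a subunit of the SAGA deubiquitinase module, had deposited values of -0.61 and 0.43 in number 1 and -0.12 and 0.29 in number 2, with differences of 1.05 and 0.41. CDK13, a kinase of the RNA polymerase II tail, had -0.13 and 0.34, then -0.34 and 0.19, in a 450-base window within 1000 bases of its 5' end. CERS2, a ceramide synthase, had -0.29 and 0.11, then -0.40 and 0.07, near its 3' end. In CDK13 and CERS2, as in ATXN7L3B and TMEM63C, the value was below 0 with sgMETTL16-1 and above 0 with sgMETTL16-2 in both numbers. RNF24, a RING finger protein, and PNKD, named for a movement disorder, had the same pattern, with differences of 0.39 and 0.66 for RNF24 and 0.51 and 0.37 for PNKD. The rule for naming windows favoured such a split of the guides around 0, in either direction. Its share among all enriched windows is not given here. MFSD14B, of the major facilitator superfamily, had the largest mean among the other higher windows (differences of 0.81 and 0.55). In SLC25A28, a mitochondrial iron carrier, the differences were 0.54 and 0.42. CORO2A, an actin-binding coronin, had 0.43 and 0.49. INAFM2 had 0.64 and 0.61.

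Among the lower windows, DDX19A, a DEAD-box helicase with a close paralogue in DDX19B, had the largest mean difference. Its deposited values were 0.38 with sgMETTL16-1 and -0.12 with sgMETTL16-2 in number 1, and 1.04 and 0.03 in number 2, which gave differences of -0.50 and -1.01. CDK5RAP2, a centrosomal protein, had the smallest p of this direction, with 0.17 and -0.34 in number 1 and 0.34 and -0.36 in number 2. Its differences were -0.50 and -0.70 (mean -0.60, 95% interval -1.15 to -0.05), and the guides lay on opposite sides of 0 in both numbers. ORC1, the largest subunit of the origin recognition complex, and PRRC1 were also on opposite sides in both numbers. ORC1 had 0.34 and -0.23, then 0.20 and -0.21. PRRC1 had 0.14 and -0.44, then 0.39 and -0.12. YPEL5, PJA2 and KLHL15, each known from ubiquitin ligase complexes, had differences of -0.62 and -0.45, of -0.72 and -0.36, and of -0.35 and -0.61. HIF1AN, the asparaginyl hydroxylase of HIF, had differences of -0.43 and -0.48. RPS6KB1, the S6 kinase, had -0.55 and -0.36. SPG20, which encodes spartin, had -0.47 and -0.39.

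**Figure D3:**
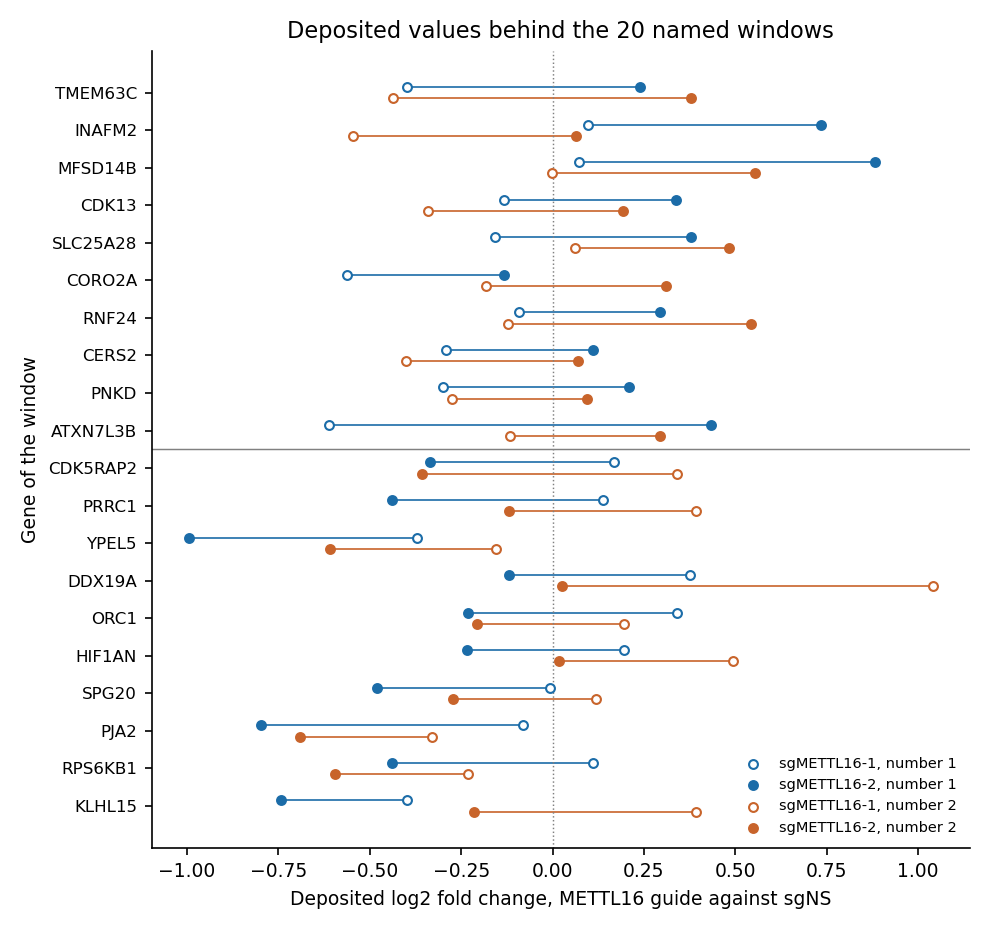
Deposited log2 fold change against sgNS (horizontal) of the 20 named enriched windows, with open circles for sgMETTL16-1 and filled circles for sgMETTL16-2, number 1 in blue and number 2 in orange, and a line for each guide difference. The 10 genes above the grey line have sgMETTL16-2 to the right in both numbers (TMEM63C differs by 0.64 and 0.82) and the 10 below it have sgMETTL16-2 to the left (CDK5RAP2 differs by -0.50 and -0.70). Sharing 1 sign in both numbers was a condition for being named.

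When limma was run on the 2231 enriched windows alone, 5 passed an adjusted p of 0.05 (0.224%), 3 higher (0.134%) and 2 lower (0.0896%), with 94 (4.21%) at an unadjusted p under 0.05. They were TMEM63C, ATXN7L3B and C16orf13 (METTL26, a methyltransferase-like protein) above 0, and DDX19A and FCGR2C below. The adjusted p was 0.0314 for each but FCGR2C. C16orf13 had deposited values of -0.63 and 0.50 in number 1 and -0.26 and 0.06 in number 2, with differences of 1.13 and 0.32. FCGR2C, an Fc gamma receptor gene with closely similar neighbours in FCGR2A and FCGR2B, had 0.48 and -1.48 in number 1 and -1.87 and -1.83 in number 2. Its difference was -1.96 in number 1 and 0.04 in number 2, so its adjusted p of 0.000357 rested on number 1 alone. In this fit limma gave every window the same SD of 0.258, so a window was ranked by its mean and not by the gap between numbers. Centring each number on its median, a choice made after seeing the data, left 0 of 2231 called (smallest adjusted p = 0.0789, 123 at an unadjusted p under 0.05).

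Averaged over enriched windows, 5 of 2613 genes passed (0.191%), 3 higher (0.115%) and 2 lower (0.0765%), with 124 (4.75%) at an unadjusted p under 0.05. TMEM63C, MFSD14B and C16orf13 were higher, and FCGR2C and ZBTB44, a zinc finger transcription factor, were lower. The ZBTB44 windows did not match between the numbers. Their deposited values were 0.03 and -0.75 in number 1 and 0.37 and -0.40 in number 2, in the order sgMETTL16-1 and sgMETTL16-2. The ZBTB44 differences of -0.78 and -0.76 were nearly equal (adjusted p = 0.0137), and sgMETTL16-2 was below 0 in both. This fit too gave every gene the same SD, 0.247, so genes were ranked by their mean alone, and FCGR2C was called with a difference of 0.04 in number 2.

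Averaged over all matched windows, the genes named by the same rule had larger differences and no enriched window in any of the 20 cases. AOC2, an amine oxidase, had gene mean differences of 1.37 over 3 windows and 1.36 over 5. GLI1, the Hedgehog pathway transcription factor, had 0.99 and 0.99. KMT2E-AS1, an antisense RNA, had 1.97 and 1.19. Their adjusted p was 0.910, as for the other 17. With 2 values per gene the smallest p favours genes whose differences are nearly equal, so that nearness is no replication. In GLI1 the deposited mean was -0.79 and -0.98 with sgMETTL16-1, and 0.20 and 0.01 with sgMETTL16-2. PHOSPHO1, PLEKHA1, PLA2G4B, MBLAC2, SHC3, ANKRD36C and ABCB10 had mean differences over both numbers between 0.60 and 1.02.

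On the lower side LOC728743 had -1.46 and -1.12. NFE2L3, a CNC-family bZIP transcription factor, had -0.90 and -0.91. UGCG, the glucosylceramide synthase, had -0.90 and -0.86, but its deposited mean with sgMETTL16-1 was 1.24 in number 1 and -0.72 in number 2, so the equal differences stood on unequal levels. ALDH5A1, the succinate semialdehyde dehydrogenase, had -1.40 and -0.93. ZNF587, PROB1, DACT3, ZNF25, USP31 and YIPF6 had mean differences between -0.99 and -0.81. With an overlap of at least 0.8 the means of SHC3 and PROB1 changed sign (-0.01 and 0.15), as did that of ANKRD36C (-0.41). Under the same overlap LOC728743 went from a mean of -1.29 to -0.08, USP31 from -0.83 to -0.14 and PLA2G4B from 0.66 to 0.25, while ABCB10 went from 0.60 to 1.42, MBLAC2 from 0.66 to 1.15 and ZNF587 from -0.93 to -0.60.

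Differences of at least 2-fold in both numbers were found in 47 windows higher with sgMETTL16-2 (0.605% of 7764) and 72 lower (0.927%). In 120 windows (1.55%) the differences were that large with opposite signs, about as many as with the same sign. In number 1 alone 655 windows (8.44%) were past 2-fold, and in number 2 alone 712 (9.17%). None of the 119 same-sign windows was enriched in all 4 tables, none had a deposited call, and their median length was 150 bases against 269 for all. In 62 of them (52.1%) at least 1 of the 4 deposited log2 values was exactly 0, 1 or -1. That share was 11.8% of all windows and 0.269% of the enriched ones. In OGT, the O-GlcNAc transferase, which has no such value, the window of 211 bases had 0.06 and -1.43 in number 1 and -0.33 and -1.38 in number 2. In HOTTIP, a long non-coding RNA of the HOXA locus, it had 2.26 and 0.53, then 0.76 and -0.91. RPS14P3, a ribosomal protein pseudogene whose reads can come from near copies, had the largest difference of number 1 among the lower ones (-3.29, with -1.60 in number 2). These 3 genes were chosen after their values were seen.

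Windows with a deposited call in one number were then read in the other. In number 1, 300 windows were called higher with sgMETTL16-2 (3.86%) and only 10 with sgMETTL16-1 (0.129%). The 300 had a median guide difference of 0.32 in number 1, where they were picked, and of -0.01 in number 2, with 45.0% above 0 against 46.7% of all windows. The 55 windows called lower with sgMETTL16-2 in number 1 (0.708%) had a median of -0.35 there and of -0.0064 in number 2. The 100 highest differences among enriched windows of number 1 had a median of -0.05 in number 2 and the 100 lowest had -0.02. Limited to enriched windows of at least 400 bases, the 199 called higher with sgMETTL16-2 in number 1 had a median of -0.03 in number 2, with 38.2% above 0 against 45.2% of all such windows. The 20 called lower had -0.11 there, with 15.0% above 0.

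Read the other way, the windows called higher in number 2 stood above the rest in number 1. The 245 called with sgMETTL16-1 (3.16%) had a median difference of 0.23 in number 1, and 95.9% of them were above 0 against 63.2% of all windows. The 227 called with sgMETTL16-2 (2.92%), which can be the same windows, also had 0.23, with 94.3% above 0. Limited to enriched windows, the shares were 97.4% of 227 and 95.1% of 206, beside 78.7% of all 2231. In the authors' deposited tables of number 1, the 245 windows had a median log2 fold change of -0.04 with sgMETTL16-1 and 0.20 with sgMETTL16-2. These windows were longer than the rest (median 569 and 588 bases against 269). Among enriched windows of at least 400 bases the shares were 97.6% and 95.5%, beside 79.2%, and the part of depth was not tested. The 28 windows called lower in number 2 with each guide (0.361%) had medians of -0.01 in number 1.

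**Figure D4:**
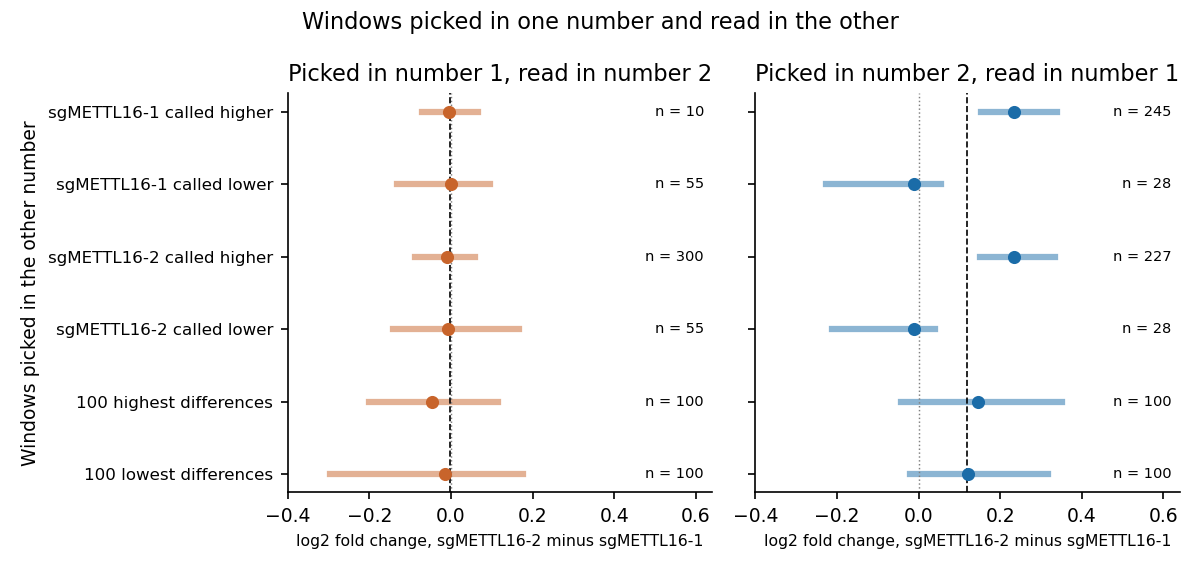
Median (point) and quartiles (bar) of the guide difference (log2 fold change of sgMETTL16-2 minus that of sgMETTL16-1) of windows picked in number 1 and read in number 2 (left) and the reverse (right), with the number of windows beside each, the dashed line for the median of all 7764 windows and the dotted line for 0. On the left all medians lie between -0.05 and 0, and on the right the windows called higher stand at 0.23 and the windows called lower at -0.01.

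No member of the 16 gene lists passed the adjusted p in limma's test over all genes. The lists are described by counts beside those of all 11609 genes tested, of which 24.6% were higher with sgMETTL16-2 in both numbers and 23.1% lower in both. Cytoplasmic ribosomal proteins had 20 windows enriched in all 4 tables. In each number 16 of these were above 0, and 13 were above 0 in both, beside 814 of 2231 enriched windows in all. Their medians were 0.07 in number 1 and 0.10 in number 2, where all enriched windows had 0.17 and -0.015. RPL14 had deposited values of -0.16 and 0.01 in number 1 and -0.13 and 0.20 in number 2. RPL32 had -0.32 and -0.23, then -0.31 and -0.08. RPS2 had -0.11 and 0.02, then 0.02 and 0.19. RPL35 had 0.54 and 0.10 as differences, and RPS6 -0.02 and -0.03. Averaged over all windows of a gene the counts were closer to even. Of 53 ribosomal protein genes 15 were higher and 13 lower in both numbers, and 2 had an unadjusted p under 0.05, RPL37 (-0.62 and -0.58) and RPL21 (-1.29 and -0.59). Reads of these genes can be shared with their many pseudogenes.

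Of 19 myeloid differentiation genes, 10 were higher with sgMETTL16-2 in both numbers and 2 lower. SPI1, the PU.1 transcription factor, had deposited values of 0.05 and 0.36 in number 1 and 0.03 and 0.12 in number 2 in its enriched window. The granule proteases had differences of 0.03 and 0.24 (CTSG), 0.17 and 0.08 (PRTN3) and 0.30 and 0.03 (ELANE). The enriched windows of CEBPE (0.34 and -0.096), CEBPA (0.25 and -0.03) and the 3' end of IL4R (0.10 and -0.18) turned below 0 in number 2. All 9 enriched windows of the list had medians of 0.25 and 0.025, beside 0.17 and -0.015 over all 2231. Of the 9, 5 were higher in both numbers. CSF3R, the receptor of granulocyte colony-stimulating factor, had gene means of 0.24 and 0.31. LYZ, lysozyme, with -0.36 and -0.73, and CSF2RA, a receptor chain of granulocyte-macrophage colony-stimulating factor, with -0.20 and -0.32, were the 2 lower ones. CD33, a sialic acid-binding receptor, had -0.06 and -0.08 in its enriched window.

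Interferon and innate immunity genes gave 10 higher and 2 lower of 24. Their 6 enriched windows had medians of 0.23 in number 1 and 0.02 in number 2, beside 0.17 and -0.015 over all 2231. Of the 6, 3 were higher in both numbers. HLA-C (-0.03 and 0.03, then 0.23 and -0.03 in its other window) and IRF3 (0.21 and -0.065) were not. The genes named next were all higher in both numbers, and the 2 lower genes are not among them. ADAR, the adenosine deaminase of double-stranded RNA, had deposited values of -0.20 and 0.14 in number 1 and -0.31 and 0.19 in number 2, differences of 0.34 and 0.49. IFI6, an interferon-induced mitochondrial protein, had -0.11 and 0.11, then 0.11 and 0.60. For OAS3, an oligoadenylate synthetase, the gene mean differences were 0.37 and 0.30. For IRF9, a subunit of the interferon-activated factor ISGF3, they were 0.31 and 0.33. IFIH1, the sensor MDA5, had 0.72 and 0.23. In ADAR the guides lay on opposite sides of 0 in both numbers. In limma's fit over enriched windows alone the adjusted p was 0.884 for ADAR and 0.996 for IFI6. OAS3, IRF9 and IFIH1 had no window enriched in every table, so that fit did not test them.

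Branched-chain amino acid metabolism gave 1 higher and 5 lower of 15 genes. PPM1K, the phosphatase of the branched-chain keto acid dehydrogenase, had gene mean differences of -0.52 and -0.18. BCAT1, the cytosolic aminotransferase, had -0.14 and -0.34, and DBT, a subunit of the dehydrogenase, -0.11 and -0.33. None of the 3 had an enriched window, and DBT also had 1 window past 2-fold the other way in both numbers, with differences of 1.96 and 1.59. The amino acid transporter SLC7A5 had 2 enriched windows with differences of 0.28 and 0.27 in number 1 and -0.06 and -0.05 in number 2. Long non-coding RNAs gave 2 higher and 7 lower of 18. TUG1 had deposited values of -1.07 and -0.42 in number 1 and 0.04 and -0.52 in number 2, which turned its difference from 0.65 to -0.55. NORAD, an RNA that binds Pumilio proteins, had 0.38 and 0.15 in its enriched window and -0.45 and -0.37 as means over all its windows, so its direction depended on the windows taken. MALAT1 had 0.50 and -0.0064.

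The m6A machinery was balanced, with 7 higher and 7 lower of 22 genes. In its 12 enriched windows, 10 were above 0 in number 1 and 5 in number 2, with medians of 0.25 and -0.03, where 78.7% and 46.5% of all enriched windows were above 0. YTHDF1, a cytoplasmic reader, had differences of 0.44 and -0.02. PCIF1, the cap-adenosine methyltransferase, had 0.40 and -0.06. RBM15B, a subunit of the writer complex, had 0.37 and -0.05 in a window of 1555 bases. RBM15, its paralogue, was higher in both numbers by gene mean (0.32 and 0.27). IGF2BP2 and IGF2BP3, readers that stabilise transcripts, were lower in both, with -0.36 and -0.44 for IGF2BP2 and -0.28 and -0.28 for IGF2BP3. S-adenosylmethionine and methionine metabolism gave 7 higher and 6 lower of 17.

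The remaining lists are given by their enriched windows, beside medians of 0.17 in number 1 and -0.015 in number 2 over all 2231. The 17 windows of translation initiation factors had medians of 0.15 and 0.02. In EIF4G1, the scaffold of the cap-binding complex, 3 windows had differences of 0.33, 0.27 and 0.30 in number 1 and 0.09, 0.08 and -0.10 in number 2. The 13 spliceosome windows had 0.12 and -0.007. SNRNP70, the U1-70K protein, had 0.37 in both of its windows in number 1 and 0.01 and 0.02 in number 2. The 14 windows of the integrated stress response had 0.10 and -0.06, with 11 above 0 in number 1, near the share of 78.7% over all enriched windows, and 3 in number 2, where that share was 46.5%. In SLC7A1, the arginine transporter, the difference was 0.50 and -0.13. DDIT3, the CHOP transcription factor, went the other way with -0.10 and 0.32.

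The 8 cell cycle windows had medians of 0.14 and -0.09. MCM5, of the replicative helicase, had 0.31 and -0.16. The 7 windows of AML and leukaemia stem cell genes had 0.19 and 0.18, with 4 higher in both numbers. DNMT3A, the DNA methyltransferase, had deposited values of -0.17 and 0.46, then -0.05 and 0.17. HOXA10 had -0.03 and 0.11, then -0.16 and 0.16, and was thus on opposite sides of 0 in both numbers, as was DNMT3A. MEIS1, the partner of HOXA proteins, had -0.06 and -0.001. DNA damage repair had 3 enriched windows, all below 0 in number 1. MSH6 had -0.09 and -0.22, TP53BP1 had -0.07 and -0.30, and PRKDC, the DNA-dependent protein kinase, turned from -0.09 to 0.36. The p53 and apoptosis list had 2, BCL2L1 with 0.31 and -0.25 and SESN2 with -0.16 and -0.03. FAS, the death receptor, had gene means of -1.51 and -0.995 from 1 window a number that was not enriched, and it had the smallest unadjusted p of its list (0.0142). Of lymphoid and erythroid markers 5 of 18 could be tested, 0 in 1 direction in both numbers, and no mitochondrially encoded gene of 28 had windows to test.

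**Figure D5:**
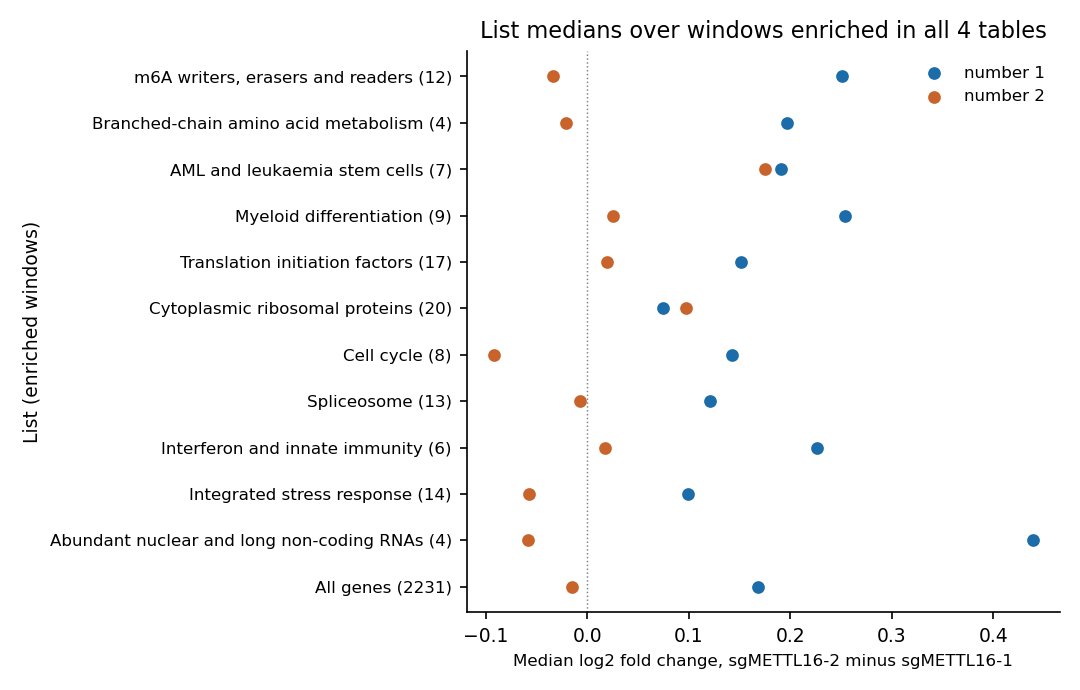
Median guide difference (log2 fold change of sgMETTL16-2 minus that of sgMETTL16-1) over windows enriched in all 4 tables in number 1 (blue) and number 2 (orange), for lists with at least 4 such windows and for all genes, with the number of windows in brackets. All 11 lists lie above 0 in number 1, while in number 2 they spread around 0, with 0.18 for the AML list and 0.10 for ribosomal proteins the highest.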

How the data were processed

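NOMO-1 cells with sgMETTL16-1, sgMETTL16-2 or sgNS gave 12 input and m6A IP libraries. The submitters' processing notes name STAR and the build GRCh38, with no STAR version. None of the sources used here gives the peak caller, the gene annotation, the handling of strand in counting or the sgNS libraries used. The deposited tables hold, per the file headers, a log2 fold change between guide and sgNS with its FDR and p-value as log10, and for IP against input an FDR as log10 and a fold enrichment. They hold no value per library, so depth is unknown and no interval from counts could be set. Only the log2 fold change, both FDRs and the fold enrichment were used, as deposited by the authors. The deposited p-value of a window in the score column was not used.

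Windows were matched over blocks with python 3.11.15. The guide difference was tested with limma 3.58.1 (R 4.3.3), an intercept fitted to the 2 table numbers, over all matched windows or all genes, with Benjamini-Hochberg adjustment. Subtracting within a number equals a replicate block. The numbers were read as the replicate numbers. Position came from gene ends in the RefSeq table for GRCh38.p14. Deposited starts count from 0 and are printed from 1. The steps were tested on simulated data. The windows, the 16 lists and the tests were chosen with earlier results of these data known.

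Named were METTL16, MAT2A and GGCX, then EIF4A1, SENP3-EIF4A1, SRSF11, IL4R, CEBPA, PTPN7 and UPF3B. Named next were the 10 enriched windows and the 10 genes (at least 3 windows a number) in each direction with the smallest p among those of 1 sign in both numbers, and up to 4 genes of each list by p. Enriched windows of list genes and the calls among enriched windows were added after their values were seen. The alternatives were an overlap of 0.8, identical blocks, enriched windows alone, a fold enrichment of 2, coordinates counted once, centring, no replicate block, a trend, a robust fit, an adjusted p of 0.1, medians over windows, genes with at least 3 windows, and each number alone. Results for some items are not reported here.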

Additional observations from a re-analysis of the deposited data

How the results depend on the processing

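No window and no gene was called by limma in the main settings, and this count stayed at 0 under 10 of 11 window alternatives and 6 of 7 gene alternatives. With enriched windows alone the counts were 5 windows and 5 genes. With no replicate block limma called 0 windows (163 at an unadjusted p under 0.05) and 0 genes (162). Centring enriched windows, chosen after seeing the data, gave 0 (smallest adjusted p 0.0789). Spearman's rho between numbers lay between -0.0215 (overlap 0.8) and 0.0627 (identical blocks). The count of 119 windows past 2-fold in both numbers became 7 with an overlap of 0.8, 11 with identical blocks, 0 in enriched windows and 51 at a fold enrichment of 2, where fewer windows were tested (979, 401, 2231 and 1380). It was 655 to 712 when either replicate was left out, since a single number then had to pass. Leaving out a replicate leaves 1 value per window, so limma could not be fitted.

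Of the named windows' values, 97 alternatives stayed within the spread between numbers and 8 moved past it, all under centring. Leaving out a replicate could not move a mean of windows or genes past that spread. Those alternatives are counted among the values that stayed, here and for the gene means, and are no check. An overlap of 0.8 left the named windows that it still matched unchanged. This is no check either, since a window still matched is as a rule the same pair. Of the enriched windows named by p, only INAFM2, RNF24 and ATXN7L3B, all of them higher with sgMETTL16-2, still had a value. Of the gene means, 88 stayed and 25 moved, among them SHC3, PROB1 and ANKRD36C with an overlap of 0.8. With that overlap GLI1, KMT2E-AS1, PLEKHA1, DACT3, UGCG, ZNF25 and ALDH5A1 gave no value. The unknown read depth limits every value in short windows without enrichment, where deposited values of exactly 0, 1 or -1 recur.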
